A study of Mus musculus with 122 samples.

Results

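The comparison is of RNA from mouse embryonic stem cells that lost CTCF with and without a CTCFL transgene switched on, and it uses 5 of the 122 samples of the series. The samples were chosen by their labels: 2 libraries labelled CTCFL ID and 3 labelled CTCFL I, all poly(A) RNA-seq. The study measured what CTCF, its testis paralogue CTCFL and chimeras of both do when they take the place of endogenous CTCF, by RNA-seq, ChIP-seq and Hi-C. Its RNA table holds 38 libraries, from 4 transgene lines in 4 conditions each. The cells derive from E14Tg2a, a male line, and carry an auxin-inducible degron on both copies of Ctcf, the plant F-box protein TIR1 and, in the Tigre locus, a Flag and mRuby2 tagged CTCFL under a doxycycline promoter. Cells of group I received 500 µM of the auxin IAA, which removes the tagged CTCF, and cells of group ID received the same IAA with 1 µg/ml of doxycycline (Dox), so that the groups differ by Dox alone. Group U received neither and group D received Dox alone. They were grown without feeder cells, in serum with LIF and the 2i inhibitors. The labels give 24 h of treatment for these libraries and the treatment protocol gives 2 days, so the length of treatment is uncertain. The labels count the ID samples as 1 and 2 of 3, and the third was not analysed here.

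CTCF is the zinc finger protein that stops cohesin on chromatin and so places the borders of loops and domains, and at some promoters it also sits just beside the start site. CTCFL, also called BORIS, has nearly the same zinc fingers but different ends. It is made for a short time in male germ cells before meiosis, and binds a part of the CTCF sites along with active promoters. In the cells compared here, CTCFL is induced while CTCF is depleted.

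The depth recovered from the table was 25148705, 23675494 and 26291116 reads in the I libraries, and 22841085 and 25003013 reads in the ID libraries. In I, 5.89% to 6.67% of the reads fell on the 10 most abundant genes, and in ID 7.42% to 7.61% did. On the first 3 principal components, with 39%, 25% and 8.31% of the variance of the CTCFL line, libraries of a group lay together, apart from D replicate 3 on the third component (-53.3 against 6.02 and 1.27 in the other D libraries), which is the library with the fewest reads, 6847072. Libraries with and without IAA separated on the first component (49.4 to 68.8 against -61.4 to -43.4), and libraries with and without Dox on the second (37.4 to 53.6 against -43.8 to -34.7).

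The first question is how gene activity differs between depleted cells with and without the CTCFL transgene induced. Genes differed in both directions, with the larger changes among the genes that were higher in ID. What Dox does by itself may be part of this difference. Of 16840.0 genes tested with limma, 663 were higher in ID than in I (3.94%) and 655 were lower (3.89%). The values of the ID and I libraries did not overlap for 662 of the 663 and for all 655, beside 61.3% of all genes tested, called or not. The median size of the change was 1.67 on the log2 scale among the genes called higher and 1.28 among those called lower, and 257 of the former and 79 of the latter changed more than 4-fold. Of the genes called higher, 88 had a mean value under 10 in I, and none had one under 10 in ID, while 28 of the genes called lower had a mean under 10 in ID. Among the genes called higher, 592 were protein-coding, 41 were long noncoding and 18 were pseudogenes, and among those called lower these numbers were 584, 27 and 11. The balance of the directions depended on the processing, with 601 higher and 749 lower with TMM factors, and 662 and 484 with each library centred within groups of genes of similar span, an alternative chosen after seeing the data. Without ID replicate 2, 472 genes were higher and 622 lower, and without ID replicate 1 these were 486 and 562, where the lone ID sample was assumed to vary like the other groups.

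The transgene itself was measured as Ctcfl, whose counts include reads of the transgene that cannot be told apart from those of the endogenous gene. Ctcfl had values of 221, 203 and 177 in I and 5572 and 5455 in ID. Both ID libraries were far above the I libraries (log2 fold change 4.78, SE 0.12, limma adjusted p 1.94e-17). Without IAA, its values were 193, 225 and 206 in U and 7764, 9398 and 7569.5 in D, all 3 D libraries above both ID libraries, though the change did not differ past the threshold with IAA (difference of the log2 fold changes -0.52, limma adjusted p 0.0213). Ctcf, whose protein the degron removes and whose RNA it does not target, had values of 5020.4, 4848 and 4695 in I and 3991 and 3767 in ID. Both ID libraries were below the 3 I libraries by an amount under the fold threshold (log2 fold change -0.32, SE 0.08, limma adjusted p 0.00246).

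The genes with the largest rises mostly had low values in I. Of genes with an annotated start site, 40.7% had a CTCFL site within 3 kb of it, as had 80.1% of those called higher. Each of the 12 named, Ctcfl included, has one. They are the largest among called genes with a mean of at least 50 over the line, groups that do not overlap and a symbol that is not a predicted or clone name, as are the falls below. Prss41, a serine protease gene of the testis at 23836785 to 23844172 on chromosome 17 (GRCm38), had values of 1.86, 3.99 and 0.91 in I and 248 and 154 in ID. The ID libraries were all above the I libraries (log2 fold change 6.03, SE 0.50, limma adjusted p 6.21e-09). Ablim3, for an actin-binding LIM protein, had values of 8.39, 9.98 and 0 in I and 258 and 301 in ID, and Nkd2, for an inhibitor of Wnt signalling, had values of 8.39, 2 and 2.72 in I and 209.7 and 315 in ID. Both were high in ID without overlap (log2 fold change 5.90, limma adjusted p 5.4e-07, and log2 fold change 5.77, limma adjusted p 7.51e-10). Hic1, for a transcriptional repressor, had values of 13.1, 9.98 and 6.34 in I and 337 and 328 in ID, and Cldn1, for a tight junction protein, had values of 13.1, 7.98 and 5.43 in I and 189 and 247 in ID. Here too every ID library exceeded every I library (log2 fold change 5.00, limma adjusted p 3.77e-08, and log2 fold change 4.54, limma adjusted p 1.82e-06). Nudt17, for a Nudix hydrolase, started higher, with values of 58.8, 71.9 and 55.2 in I and 1377 and 1305 in ID. Its groups were clearly apart (log2 fold change 4.42, SE 0.18, limma adjusted p 2.13e-13). The remaining 5 of the 12, besides Ctcfl, were B3gat2 (5.09), for a glucuronyltransferase, Pvalb (4.68), for a calcium-binding protein of neurons and muscle, Tmem132e (4.67), for a neuronal membrane protein, Olfml2a (4.44), for a secreted olfactomedin-like protein, and Ly6k (4.41), for a protein of the sperm surface. The value for Ly6k is uncertain, because related genes of the Ly6 family lie close together and may share reads.

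By the same rule, 12 genes with the largest falls were chosen, of which 10 have no CTCFL site near a start site. Among all genes called lower with an annotated start site, 31% had such a site. The largest fall of any gene called, without these filters, was 4.17. Mettl25, for a methyltransferase-like protein, had values of 578, 481 and 555 in I and 60.1 and 82.4 in ID. The ID libraries were both below the I libraries (log2 fold change -2.91, SE 0.18, limma adjusted p 4.9e-11). Msc, for a repressor of the bHLH class, had values of 101, 111 and 144 in I and 13.1 and 11.1 in ID, and St8sia1, for the synthase of the ganglioside GD3, had values of 394, 366 and 316 in I and 68.8 and 36.2 in ID. All ID libraries were below all I libraries (log2 fold change -3.18, limma adjusted p 5.91e-05, and log2 fold change -2.81, limma adjusted p 6.93e-10). Prmt8, for an arginine methyltransferase of the membrane, had values of 286, 188 and 245 in I and 29.5 and 41.2 in ID, and Dusp27, for a phosphatase-like protein of muscle, had values of 556, 541 and 491 in I and 103 and 81.4 in ID. They were low in ID without overlap (log2 fold change -2.73, limma adjusted p 1.11e-09, and log2 fold change -2.52, limma adjusted p 3.79e-10). The other 7 of the 12 were Cacna1d (-2.81), for a calcium channel, Aoah (-2.81), for a lipopolysaccharide hydrolase, Dnajc6 (-2.45), for the clathrin uncoating protein auxilin, Bmper (-2.45), for a BMP-binding protein, Prss35 (-2.44), for a secreted protease, Igf1 (-2.39), for a growth factor, and Zbtb4 (-2.39), for a zinc finger protein that binds methylated DNA. Mettl25 and St8sia1 have a site. The median span of the 12 was 79.6 kb, beside 20.6 kb for the 12 largest rises.

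CTCFL is a protein of male germ cells, so genes that need it in the testis, and meiotic genes at large, were read next. Most of the few testis targets were called higher, and most of the wider meiotic set were not. Of 6 testis targets, 5 were called higher and 0 lower by limma, edgeR and DESeq2 alike. This is no independent count, as the counts of Ctcfl include reads of the transgene. Besides, Ctcfl, Prss50, Gal3st1 and Stra8 are among the genes pictured in the publication, which may have been picked with these libraries. The other 2 are Prss41, named above, and Tex101. All 6 had an unadjusted p under 0.05, as had 8071 of the 16840.0 genes tested, or 47.9%, beside which such counts below are to be read. Likewise, counts of called members are to be read beside the 3.94% of all genes called higher and the 3.89% called lower. Prss50, which encodes a testis protease, lies at 110857967 to 110864629 on chromosome 9. Its values were 77.4, 76.8 and 64.3 in I and 1359 and 1282 in ID. The ID libraries were all higher, without overlap (log2 fold change 4.17, SE 0.18, limma adjusted p 2.48e-13). Gal3st1, whose sulfotransferase makes the sulfoglycolipid of spermatocytes, had values of 57.8, 71.9 and 73.3 in I and 222 and 228 in ID, and Tex101, for a protein of the germ cell surface, had values of 222, 258 and 224 in I and 883 and 827 in ID. Tex101 has no CTCFL site near a start site, and both genes were higher in ID without overlap (log2 fold change 1.73, limma adjusted p 2.27e-05, and log2 fold change 1.86, limma adjusted p 3.45e-08). Stra8, which starts the meiotic program, was already at 9877, 9561 and 11224 in I, beside 3866, 3985 and 3979 in U, and reached 18928 and 20243 in ID, beside 11551, 11940.1 and 11896 in D. Every ID library was above every I library, with a change just under the fold threshold (log2 fold change 0.94, SE 0.073, limma adjusted p 1.89e-09) that passed it without I replicate 3 (1.01). Of 50 genes of meiosis and the germline tested, 4 were called higher and 0 lower by limma, edgeR and DESeq2 alike, with 29 at an unadjusted p under 0.05 and a median log2 fold change of 0.17, beside -0.01 for all genes tested. They were Tdrd12 (2.52), of the piRNA pathway, Sycp2 (1.46), of the synaptonemal complex, Mei1 (1.21), of meiotic break formation, and Taf7l (1.09), of germ cell transcription. Mei1 was not called without I replicate 2 (0.98), ID replicate 1 (1.06) or ID replicate 2 (1.35, limma adjusted p up to 0.0596 over these), nor was Taf7l without ID replicate 1 (0.96). In a fit of all 4 lines, Sycp2 (limma adjusted p 0.0169) and Mei1 were not called, nor was Mei1 with no filter on low values (limma adjusted p 0.0101). Of 10 genes of the MAGE family tested, 0 were called by limma, edgeR or DESeq2, and 4 had an unadjusted p under 0.05.

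**Figure D1:**
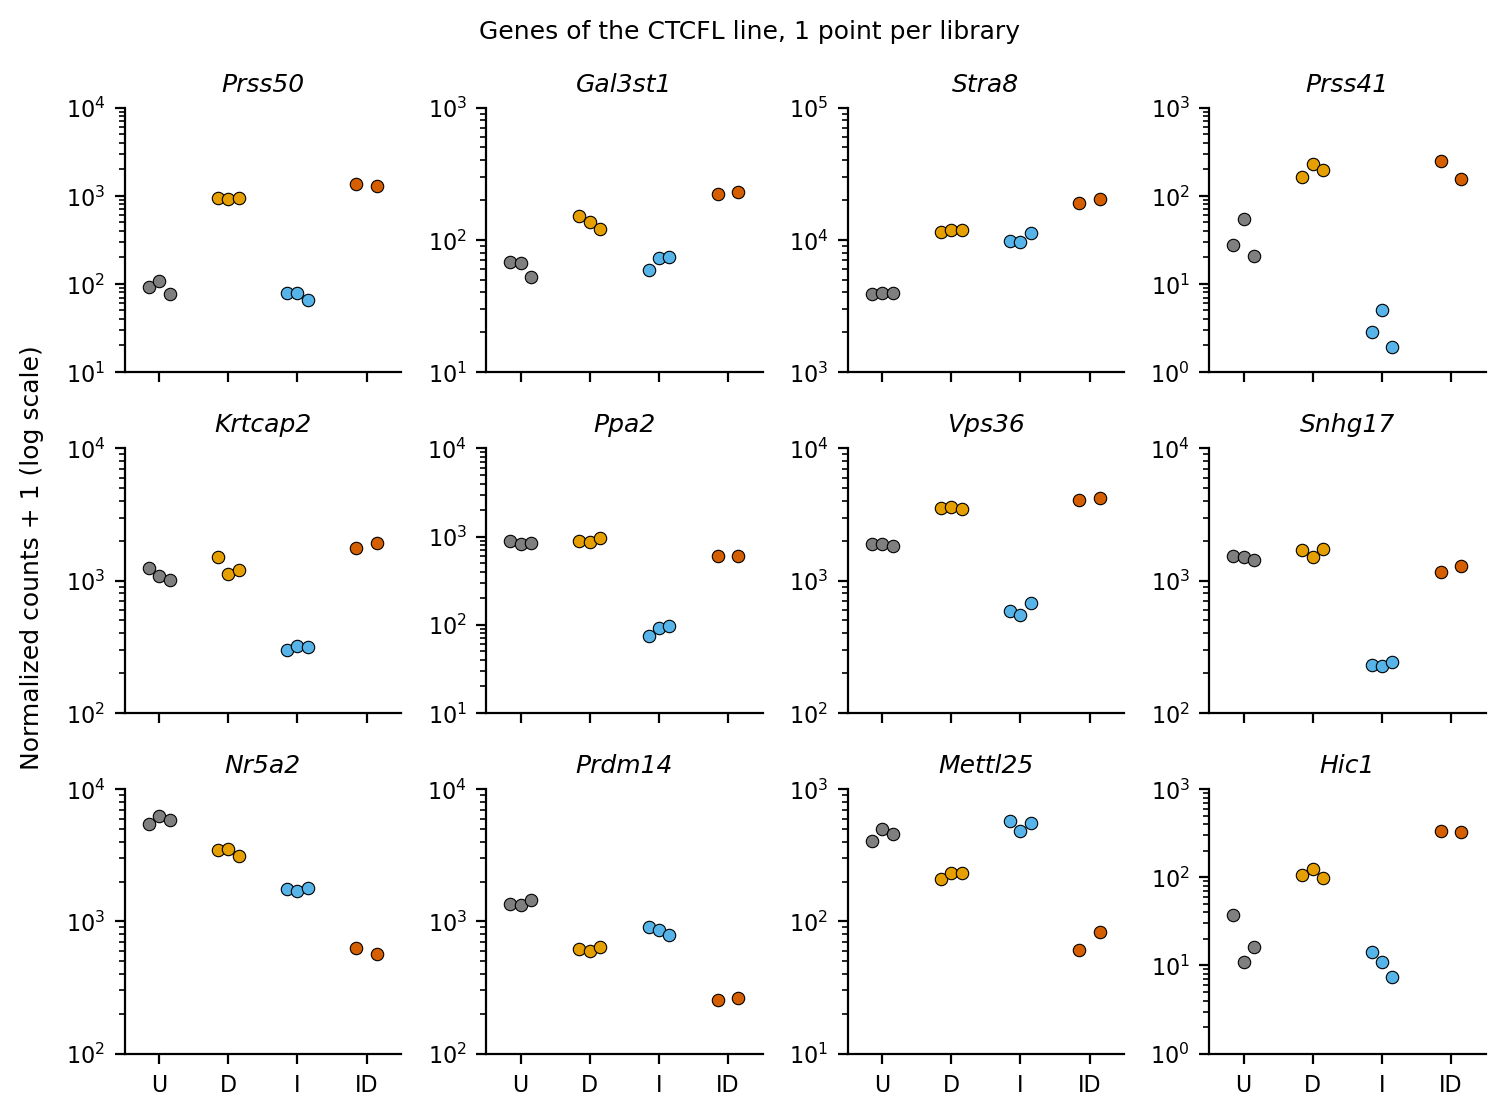
Normalized counts plus 1, on a log axis, of 12 genes in each library of the CTCFL line, 1 point per library in groups U (untreated), D (Dox), I (IAA) and ID (both). Prss50 lies between 64.3 and 77.4 in I and at 1359 and 1282 in ID, Krtcap2, Ppa2, Vps36 and Snhg17 are lowest in I, and Nr5a2, Prdm14 and Mettl25 are lowest in ID.

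Where CTCFL sat in the same condition was taken from the authors' Flag ChIP-seq peaks of CTCFL ID, which the RNA comparison did not use. Sites near start sites were common among genes that rose. With a peak required in both replicates, they were less common among genes that fell than among genes not called. Peaks of both replicates (33243 and 34519) shared 25097 sites, and 6692 of the 16424 genes with an annotated start site had one within 3 kb, or 40.7% (95% Wilson interval 40 to 41.5). Of the genes called higher, 522 of 652 had a site, or 80.1% (76.8 to 82.9). Of the genes called lower, 197 of 636 had one, or 31% (27.5 to 34.7), and of the genes not called 39.5% (38.7 to 40.2) had one. Read the other way, 7.8% of genes with a site were called higher and 2.94% lower, and their median log2 fold change was 0.08, beside 1.34%, 4.51% and -0.08 for genes without a site. Most genes with a site were not called in either direction. With peaks of 1 replicate, the share with a site among genes called lower was 38.8% and 37.6%, and no share of genes not called is given for that rule. Of the 12 genes with the largest rises, B3gat2 had the site farthest from a start site, at 1124 bases, and the middles of others lay at a distance of 34 bases for Prss41, 6 for Nudt17, 89 for Hic1 and 1 for Ctcfl. The middle of the Prss50 site was 57 bases from its start site.

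The core of the shared CTCF and CTCFL motif, AGGNGGC, was present in 25.6% of the 101-base windows at the summits of all sites, and in 27.1% at summits near a start site. In windows of the same length just before RefSeq start sites it was present in 13.2%. For the 62 of 95 named genes with a site, 58 windows were read and 23 held the motif. At Prss50 the window, from 110857840 to 110857940 of chromosome 9 on the plus strand, reads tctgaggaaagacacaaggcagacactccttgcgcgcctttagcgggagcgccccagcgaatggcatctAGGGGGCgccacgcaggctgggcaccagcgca, with the motif in capitals. At Cldn1 it runs from 26371855 to 26371955 of chromosome 16 and reads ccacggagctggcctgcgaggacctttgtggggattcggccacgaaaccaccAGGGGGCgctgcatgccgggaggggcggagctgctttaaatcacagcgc on the minus strand. The windows at the summits for Prss41, Nudt17 and Stra8 hold no such motif on either strand.

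**Figure D2:**
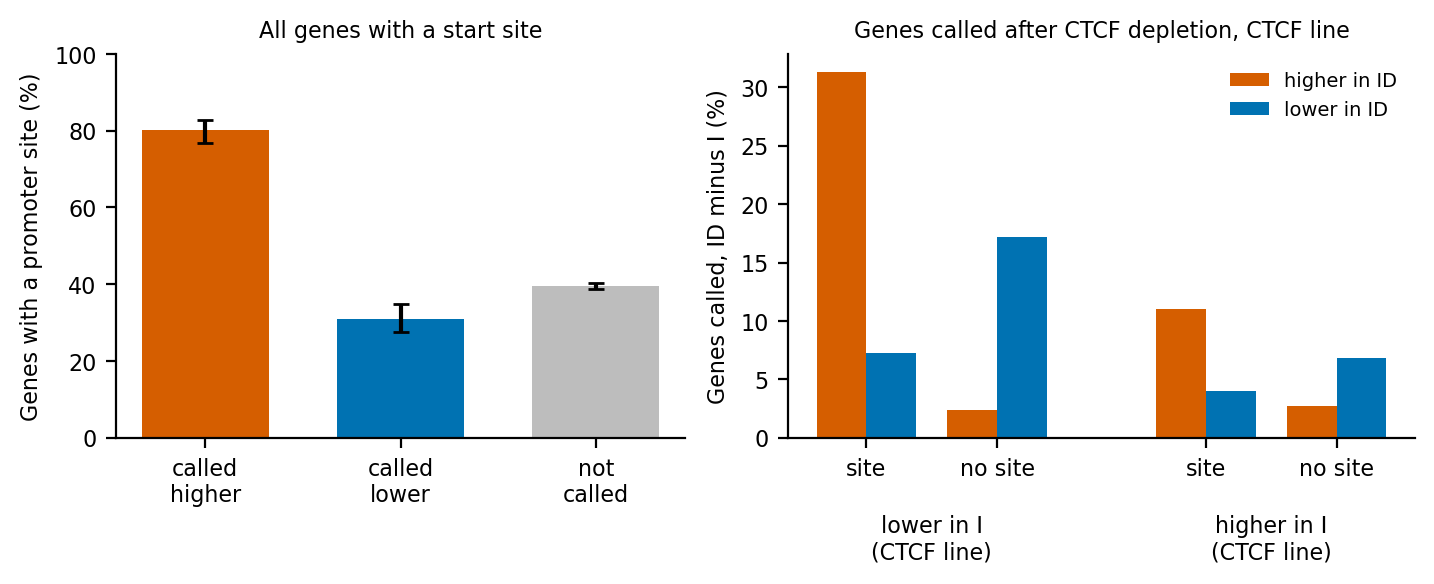
Left, percent of genes with a CTCFL site within 3 kb of a start site among genes called higher, called lower and not called in ID against I, with 95% Wilson intervals as error bars (80.1%, 31% and 39.5%). Right, percent of genes called higher or lower in ID against I among genes that CTCF depletion lowered or raised in the CTCF line, with and without such a site, where 31.3% of lowered genes with a site rose and 2.37% of those without one did.

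A second question is whether CTCFL acts on genes that need CTCF. To choose such genes without the I libraries compared here, they were taken from the CTCF line, where 1824 genes were called in I against U (10.9%). Genes that CTCF depletion lowered there moved both ways in the CTCFL line, and the direction went with the CTCFL site. Of 974 such genes measured, 169 were higher in ID than in I, or 17.4%, and 117 were lower, or 12%, beside 3.94% and 3.89% of all genes tested. Of the 495 of these genes with a CTCFL site near a start site, 155 were higher, or 31.3%, and 36 were lower, or 7.27%, with a median log2 fold change of 0.21. Of the 464 with an annotated start site and no CTCFL site near it, 11 were higher, or 2.37%, and 80 were lower, or 17.2%, with a median of -0.39. Over all 974, the median was -0.12, and it was -0.20 with a mean of at least 50 and -0.18 with TMM factors. Of 810 genes that depletion raised in the CTCF line, 47 were higher and 49 lower, or 5.8% and 6.05%, with a median of -0.05 that became -0.11 with TMM factors and -0.01 with a mean of at least 50. Among these, 11% of the 300 with a site and 2.67% of the 487 without one were higher. The split by site was made after the data were seen. Whether these genes also bind CTCF itself was not tested, and genes with and without a CTCFL site may differ in more than that site.

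Whether the change with Dox depends on the loss of CTCF was tested with an interaction, the change from I to ID minus the change from U to D. Dox changed fewer genes without IAA, and many genes changed in a similar way, while others changed by a different amount. From U to D, 634 genes were called higher (3.76%) and 360 lower (2.14%). Of the 663 genes higher in ID than in I, 301 were also higher in D than in U, or 45.4% of the one list and 47.5% of the other, and 2 were lower. Of the 655 lower genes, 141 were also lower there, or 21.5% and 39.2% of the lists, and 0 were called higher there by limma. Across all genes tested, which are not independent of each other, the changes had a Pearson r of 0.521. The interaction was called for 457 genes (2.71%), of which 180 rose more or fell less with Dox in depleted cells and 277 rose less or fell more. Of the 180, 124 were called higher in ID against I, 0 lower and 56 neither, and of the 277, 139 were called lower, 4 higher and 134 neither. The interaction contains the change from I to ID, so this match of directions is partly built in. Of the 121 of those 124 genes with an annotated start site, 112 had a CTCFL site, or 92.6%. Among the genes higher in ID against I, the share with a site was 81.6% of the 299 also higher in D and 79% of the 352 not called in D.

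Among genes called in both ID against I and the interaction, and passing the filters above, the 6 with the smallest adjusted p of the interaction were lowest in I. All 6 have a CTCFL site whose middle lies within 165 bases of a start site. Krtcap2, for a subunit of the oligosaccharyltransferase, had values of 1240.2, 1082 and 1013 in U and 1499.7, 1126 and 1206 in D, and 296, 321 and 316 in I and 1771 and 1909.8 in ID. The I libraries were below all others, and those of ID above all others (interaction 2.37, limma adjusted p 6.06e-09). Ppa2, for the pyrophosphatase of mitochondria, had values of 899, 828 and 838 in U and 884, 869 and 974 in D, and 73.7, 91.8 and 95.9 in I and 603 and 596 in ID. I was lowest, and ID lay above I and below U and D, without overlap (interaction 2.69, limma adjusted p 6.17e-09). Vps36, of the ESCRT-II complex of endosomal sorting, had values of 1901, 1898 and 1822 in U and 3535, 3588 and 3483 in D, and 592, 551 and 678 in I and 4096 and 4222 in ID. I was lowest and ID highest, and D was above U (interaction 1.86, limma adjusted p 1.87e-09). Snhg17, a host gene of small nucleolar RNAs, had values of 1547, 1518 and 1426 in U and 1699.9, 1505 and 1745 in D, and 229, 224 and 239.8 in I and 1164 and 1299 in ID. I was again lowest, with ID between I and the other groups (interaction 2.27, limma adjusted p 1.87e-09). Tex261, for a protein of the early secretory pathway, and Ubqln4, for a shuttle of proteins to the proteasome, changed from I to ID by 2.09 and 1.18 and from U to D by 0.10 and -0.38.

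Among the largest rises, the interaction was called for Prss41 (3.40), Nkd2 (4.38), Hic1 (2.45) and Nudt17 (2.31). All 12 genes of the largest rises were also called higher in D against U, though Nkd2 (1.39) lost that call when any of the 6 libraries was left out (limma adjusted p up to 0.0335). That count is partly built in. The mean of at least 50 used to choose the genes includes the D libraries, which favours genes high in D. Ctcfl, which is among the 12, also counts reads of the induced transgene. Of the 12 largest falls, 10 were called lower in D against U as well, a count that the same filter can raise, because the mean also includes the U libraries. Mettl25 (-1.01) fell short of the fold threshold without D replicate 1 or U replicate 2 (-0.94), while Zbtb4 gained the call without D replicate 3 (-1.54). The interaction was called for 2 of the falls, Mettl25 (-1.90) and St8sia1 (-1.31). The interaction of Hic1 was not called without 9 of the 11 libraries, left out in turn (limma adjusted p up to 0.0532), that of Prss41 not without ID replicate 1 (3.06, 0.0202), and that of St8sia1 not without ID replicate 2 (-0.86, 0.0174). Conversely, it was called for Ly6k without U replicate 3 (1.88), for Zbtb4 without D replicate 1 (-1.79), for Cacna1d without ID replicate 2 (-3.08), and for Dnajc6 without I replicate 3 (-1.34) or ID replicate 2 (-1.71). Tdrd12 had values of 131, 118 and 92.9 in U and 159.8, 100.5 and 146 in D, and 26.1, 37.9 and 40.7 in I and 223 and 183 in ID. Its I libraries were lowest (interaction 2.29, limma adjusted p 0.000409). Gadd45g, a growth arrest gene, rose with Dox without IAA and did not with it, with values of 539, 640.3 and 535 in U and 2057, 1815 and 1760.4 in D, and 428, 416 and 487 in I and 335 and 302 in ID. D was highest by far and ID lowest (interaction -2.19, limma adjusted p 2.29e-08).

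**Figure D3:**
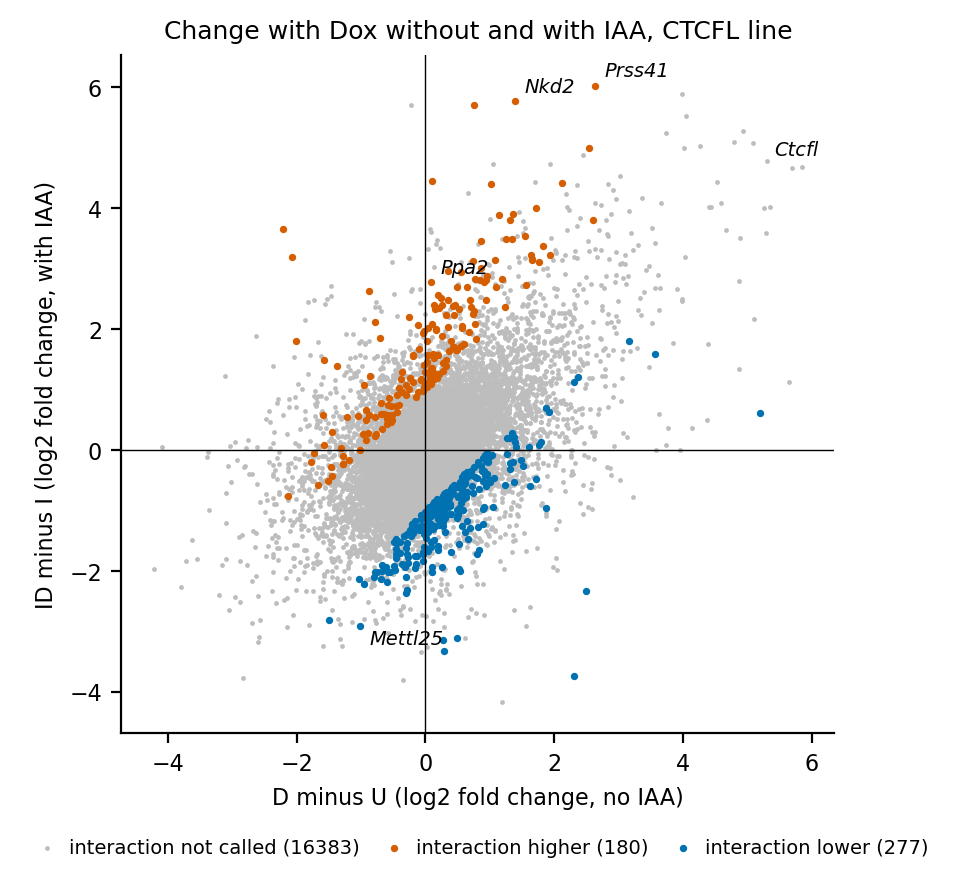
Each point is 1 of 16840.0 genes, with its log2 fold change from U to D (no IAA) on the x axis and from I to ID (with IAA) on the y axis, coloured by the test of their difference. The 180 genes that rose more or fell less with Dox in depleted cells lie above the line of equal change, Nkd2 and Ppa2 among them, and the 277 that rose less or fell more, such as Mettl25, lie below it.

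The line with a CTCF transgene received the same Dox and IAA, and shows ID against I with that transgene in place of the CTCFL transgene. By design Dox switches on CTCF there, so that line does not show the effect of Dox alone. Its libraries labelled CTCF ID did not have more Ctcf RNA than those labelled CTCF I (3909.8, 4137 and 4142 against 4622, 4371 and 4231), and whether the values count reads of that transgene is not known, so they do not show how far it was induced. In that line 294 genes were higher in ID (1.76%) and 551 lower (3.30%) of 16705 tested. Of the 604 genes higher with CTCFL and tested in both lines, 123 were higher in the CTCF line too, or 20.4% of that list and 42.7% of the 288 of the other, and 10 were lower. Of 649 lower genes, 168 were lower there, or 25.9% and 31.5% of the lists, and 1 was higher. Across 16048 genes the Pearson r was 0.516. The difference between the lines was called for 546 of 16867 genes (3.24%), with 370 changes higher in the CTCFL line and 176 lower. Ablim3 is an example of the former, with values of 10.7, 11.4 and 9.22 in CTCF I and 7.23, 11.7 and 13.6 in CTCF ID. Those groups overlap, and the lines differed by 5.88 on the log2 scale (limma adjusted p 7.67e-05). Prss50 had values of 33.9, 38.6 and 60.4 in CTCF I and 60.3, 83.3 and 74.2 in CTCF ID. These overlap and were not called (0.73, limma adjusted p 0.0188), and the lines differed by 3.43 (limma adjusted p 2.91e-08). Of the 12 largest rises, Tmem132e was not tested in CTCF ID against I, and 5 were called higher there as well. They were Pvalb (3.98), Nkd2 (3.76), Prss41 (3.32), Nudt17 (2.23) and Hic1 (1.68). For Nkd2 and Pvalb the difference between the lines was not called (limma adjusted p 0.0501 and 0.648), though Nkd2 gained the call without CTCF I replicate 3. For Prss41 (2.71) it was lost without 9 of the 11 libraries, left out in turn. Krtcap2, Ppa2, Vps36, Tex261 and Snhg17 were called higher in CTCF ID against I too (2.30, 1.55, 1.10, 1.45 and 1.92), and of these Vps36 and Ppa2 rose more in the CTCFL line (lines difference 1.68 and 1.23, limma adjusted p 2.8e-09 and 0.000109). The 1613 genes called in I against U of the CTCFL line (9.58%) give the reverse view. Of the 966 lowered there and measured in the CTCF line, 82 were higher in CTCF ID, or 8.49%, and 232 lower, or 24%, with a median of -0.62, and of the 601 raised there 5 were higher and 52 lower, with a median of -0.10.

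Embryonic stem cells are defined by their pluripotency network, and part of it was lower in ID. Of 25 genes of naive pluripotency tested, 7 were called lower and 0 higher by limma, edgeR and DESeq2 alike, 19 had an unadjusted p under 0.05, and the median log2 fold change was -0.51, with 3 of 25 changes above 0. Prdm14, a repressor that guards the naive state, had values of 910.1, 863 and 793 in I and 254 and 260.3 in ID, and Nr5a2, a nuclear receptor that sustains Pou5f1, had values of 1755, 1688 and 1786 in I and 631 and 567 in ID. Both were low in ID without overlap (log2 fold change -1.73, SE 0.11, limma adjusted p 7.41e-11, and log2 fold change -1.54, SE 0.084, limma adjusted p 1.03e-11). Fgf4, the growth factor that prepares cells to leave the naive state, had values of 4273, 4356 and 4009 in I and 1580.1 and 1737 in ID, and Dppa2, an epigenetic priming factor, had values of 806, 944 and 938 in I and 346 and 322 in ID. All ID libraries were below all I libraries (log2 fold change -1.35, limma adjusted p 6.06e-12, and log2 fold change -1.42, limma adjusted p 5.38e-08). The other 3 called, named after their values were seen apart from Tet2, were Dppa3 (-1.31), of the oocyte and naive cells, Tet2 (-1.07), a DNA demethylase, and Tfcp2l1 (-1.06), a naive transcription factor. Tet2 fell short of the fold threshold without I replicate 1 (-0.98). From U to D, 4 of the 25 were called lower and 0 higher by limma (median -0.40). From CTCF I to CTCF ID, 3 were called lower and 1 higher (median -0.15). The 3 were Dppa2 (-1.76), Nr5a2 (-1.14) and Tet2 (-1.06, and -0.85 without CTCF I replicate 1), while Prdm14 (-0.23) and Fgf4 (-0.28) were not called there. The core factor Pou5f1 had values of 15083, 13251 and 12975 in I and 14732 and 13097 in ID, with overlap and a log2 fold change of 0.02 (limma adjusted p 0.902). Nanog, Klf4, Zfp42, Esrrb and Sox2 were lower by less than the fold threshold (-0.79, -0.74, -0.56, -0.46 and -0.43). Of 26 genes of post-implantation cells and germ layers, limma called 1 higher and 2 lower (median -0.05), and edgeR and DESeq2 called 0 higher and 2 lower, with 13 at an unadjusted p under 0.05. Otx2, which marks cells leaving the naive state, had values of 173, 187 and 129 in I and 55.7 and 31.2 in ID, and Sox1, of early neural cells, had values of 159, 185 and 219.9 in I and 52.4 and 60.3 in ID. Both were low in ID without overlap (log2 fold change -1.92, limma adjusted p 2.76e-06, and log2 fold change -1.71, limma adjusted p 1.88e-06), while Eomes, of mesoderm and endoderm, rose by 1.03 and was not called by edgeR (0.99) or DESeq2, with TMM factors (0.98), or without I replicate 2 (0.86) or ID replicate 2 (0.91).

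Markers of other cell types were summed in each library. Sums over 10 fibroblast markers were 1893, 2086 and 1844 in I and 3160.2 and 3269 in ID. The sums were higher in ID without overlap. Without IAA they were 1435, 1508 and 1270 in U and 1983, 2132 and 1880 in D, higher in D without overlap. Thy1 was the most abundant marker over the line, and Dcn was at 0 in every library. Of the 5 fibroblast markers tested, 0 were called by limma, edgeR or DESeq2, 4 had an unadjusted p under 0.05, and their median change was 0.67. From U to D, limma called 2 of these 5 higher and 0 lower, with a median of 1.3. Sums over the naive pluripotency genes were 158256, 161221 and 156308 in I and 121853 and 116625 in ID, and sums over 30 post-implantation and germ layer genes were 19806, 19959 and 18665 in I and 18690.0 and 19551 in ID. The former were lower in ID without overlap, and the latter overlapped. Fewer cells of a type and less RNA of a gene in each cell cannot be told apart in these libraries.

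Of genes of the 2-cell embryo, which a few stem cells switch on at a time, some were lower in ID than in I. Of 15 tested, 6 were called lower and 0 higher by limma, with a median log2 fold change of -1.55, 11 had an unadjusted p under 0.05, and edgeR and DESeq2 called 8 and 9 lower and 0 higher. Sums over 25 such genes were 287, 387 and 401 in U and 439, 466 and 416 in D, and 1887, 1958 and 2032 in I and 669 and 734 in ID. I was the highest group and ID lay between I and the groups without IAA. In the CTCF line, 14 of 18 were lower in ID as well, with 0 higher by limma and a median of -1.37. Usp17lb, of a family of deubiquitinase genes, had values of 342, 374 and 395 in I and 111 and 113 in ID. ID was low without overlap (log2 fold change -1.71, limma adjusted p 1.5e-05). Zscan4c, Zscan4e and Zscan4f changed by -1.81, -2.01 and -2.13 on the log2 scale, and each lost its call when 1 library was left out, Zscan4c with any of the 5 (limma adjusted p up to 0.103), Zscan4e without either ID replicate (-2.09 and -1.92) and Zscan4f without I replicate 1 (-1.93), I replicate 3 (limma adjusted p 0.0136) or ID replicate 1 (-1.76). With no filter on low values Zscan4c and Zscan4f were not called (limma adjusted p 0.0337 and 0.0109), nor was Zscan4f in a fit of all 4 lines (limma adjusted p 0.0118). These families hold near-identical copies that share reads, so the values of single members are uncertain.

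Stress responses were read because Dox, IAA and a foreign protein can each cause one. Of 23 genes of the integrated stress response, 1 was called higher and 0 lower by limma, edgeR and DESeq2 alike, with 14 at an unadjusted p under 0.05 and a median of 0.25. Ddit3, which encodes the stress factor CHOP, had values of 749.7, 845 and 829.9 in I and 2311 and 2318 in ID. It was high in ID without overlap (log2 fold change 1.52, SE 0.11, limma adjusted p 4.44e-10), and it also rose from U to D by 2.21 and from CTCF I to CTCF ID by 1.57. In the CTCF line 6 of the 23 were called higher, with a median of 0.87. Of 28 targets of p53 tested, 0 were called by limma, edgeR or DESeq2, 12 had an unadjusted p under 0.05, and the median was 0.14. Of 9 genes of the mitochondrial genome tested, 1 was called higher and 0 lower by limma, edgeR and DESeq2 alike, with 5 at an unadjusted p under 0.05. This was mt-Nd6, the gene on the light strand, with values of 1589.8, 1775 and 2408 in I and 5239 and 5509 in ID. It was higher in ID without overlap (limma adjusted p 4.05e-08). The mitochondrial median was 0.76, and sums over 13 genes were 637981, 753162 and 886044 in I and 944447 and 1024874 in ID, higher in ID without overlap. Of 9 housekeeping genes, 0 were called by limma, edgeR or DESeq2, 7 had an unadjusted p under 0.05, and the median was 0.13.

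Signalling genes were read next, beside 3.94% of all genes called higher, 3.89% called lower and 47.9% at an unadjusted p under 0.05. Of 30 Notch pathway genes, limma and DESeq2 called 2 higher and 2 lower and edgeR called 2 and 1 (16 at an unadjusted p under 0.05, median 0.18). Dll1, a Notch ligand, had values of 376, 484 and 382 in U and 3508, 3891 and 3686 in D, and 749.7, 544 and 679.7 in I and 2404 and 2160.0 in ID. D was highest and ID came next, both above U and I without overlap (change from I to ID 1.80, interaction -1.36, limma adjusted p 1.05e-05). Rbpj, the DNA-binding partner of Notch, had values of 1949, 1911 and 1882 in I and 929 and 886 in ID, with ID low without overlap (log2 fold change -1.08, limma adjusted p 4.9e-09). Dll4, another ligand, rose by 3.18 from single digits and was not called without I replicate 2 (3.02), ID replicate 1 (3.39) or ID replicate 2 (2.97), and Lfng, a glycosyltransferase that modifies Notch, changed by -1.42 and kept its call with ID replicate 2 left out but not with any other of the 5 libraries left out (down to -0.72, limma adjusted p 0.256). Neither was called with no filter on low values (limma adjusted p 0.0134 for Dll4), nor was Lfng by edgeR (-1.31). Of 39 genes of the TGF-beta and Nodal pathway, 1 was called higher and 4 lower by limma, edgeR and DESeq2 alike (22 at an unadjusted p under 0.05, median -0.08). Tgfb1, the ligand, had values of 206, 144 and 170.2 in I and 834 and 817 in ID, and Tdgf1, the Nodal coreceptor, had values of 21493, 23123 and 24033 in I and 10932 and 10790.1 in ID. Tgfb1 was high and Tdgf1 low in ID, each without overlap (log2 fold change 2.26, limma adjusted p 1.65e-09, and log2 fold change -1.07, limma adjusted p 1.27e-10). Gdf3 (-1.23), a Nodal-like ligand, Lefty2 (-1.34), a Nodal inhibitor, and Tgfbr2 (-1.07), a receptor named after its value was seen, were lower too, and Lefty2 was not called without ID replicate 2 (-1.03). Of 30 immediate early genes, 2 were higher and 1 lower by limma, edgeR and DESeq2 alike (19 at an unadjusted p under 0.05, median -0.01). Dusp4, for a MAP kinase phosphatase, had values of 97.9, 99.8 and 94.1 in I and 382 and 426 in ID, and Fosb, for an AP-1 subunit, had values of 84.8, 86.8 and 89.6 in I and 25.1 and 20.1 in ID. Dusp4 was high and Fosb low in ID without overlap (log2 fold change 2.04, limma adjusted p 4.87e-07, and log2 fold change -1.91, limma adjusted p 0.000204), while Myc, for a growth regulator, rose by 1.27 and was not called without ID replicate 1 (1.33) or ID replicate 2 (1.21). Of 23 interferon response genes, limma and edgeR called 5 higher and 1 lower and DESeq2 called 6 and 1, and 17 of 23 changes were above 0 (13 at an unadjusted p under 0.05, median 0.58). Ifi27, a mitochondrial interferon-induced gene, had values of 56.9, 72.9 and 71.5 in I and 498 and 395 in ID. It was high in ID without overlap (log2 fold change 2.72, limma adjusted p 1.42e-06). Usp18 (3.43), which damps the response, Mx1 (2.27), which is antiviral, and Psmb9 (1.14), of the immunoproteasome, rose as well, and Ifitm1 (-1.08) fell, the last 2 named after their values were seen. Usp18 and Mx1 were not called without I replicate 2 (2.61 and 1.57), ID replicate 1 (3.51 and 2.38) or ID replicate 2 (3.36 and 2.16), nor with no filter on low values (limma adjusted p 0.0173 and 0.0157), and Mx1 not in a fit of all 4 lines (limma adjusted p 0.0137).

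Next come gene sets at loci where CTCF is known to act, and sets for factors that work with it or act in DNA methylation. Of all genes tested, limma called 3.94% higher and 3.89% lower, and 47.9% had an unadjusted p under 0.05. Of 35 imprinted genes tested, limma called 2 higher and 2 lower (17 at an unadjusted p under 0.05, median 0.07), edgeR 1 and 2, and DESeq2 2 and 3. Sgce, a maternally imprinted sarcoglycan gene, had values of 97, 88.8 and 59.7 in I and 261 and 209 in ID, and Sfmbt2, a paternally expressed Polycomb gene, had values of 928, 1024 and 701 in I and 358 and 326 in ID. Sgce was high and Sfmbt2 low in ID without overlap (log2 fold change 1.53, limma adjusted p 1.85e-05, and log2 fold change -1.35, limma adjusted p 9.61e-08). Zrsr1 (-1.11), for a splicing factor, fell short of the fold threshold without ID replicate 1 (-0.89), and Ppp1r9a (1.01), for a neuronal actin-binding protein, was not called by edgeR or DESeq2 (both 0.97), with TMM factors (0.96), with a pseudocount of 5 (0.90), with no filter on low values (limma adjusted p 0.0101) or with the I and ID libraries fitted alone, nor without I replicate 2 (0.74), ID replicate 1 (1.14) or ID replicate 2 (0.88). Igf2, whose expression CTCF at the neighbouring control region restrains, had values of 1287, 1406 and 1234 in I and 1828 and 1714 in ID, higher in ID without overlap and under the fold threshold (log2 fold change 0.44, limma adjusted p 0.000875). Of 30 Hox genes tested, 1 was called higher and 1 lower by limma, edgeR and DESeq2 alike (9 at an unadjusted p under 0.05, median 0.09). Hoxb13 had values of 239, 232 and 239.8 in I and 88.5 and 57.3 in ID, low in ID without overlap (log2 fold change -1.72, limma adjusted p 4.28e-05), and Hoxa7 rose by 1.35 and was not called without ID replicate 1 (1.41) or ID replicate 2 (1.29). Of 58 clustered protocadherin genes, whose promoters hold CTCF sites, 10 were high enough to test, and 1 was called higher and 0 lower by limma, edgeR and DESeq2 alike (3 at an unadjusted p under 0.05, median 0.51). That gene, Pcdhga3, had values of 0.93, 0 and 0.91 in I and 19.7 and 41.2 in ID, and it was not called without ID replicate 2 (3.74). Of 21 genes for cohesin and other loop factors, 0 were called by limma, edgeR or DESeq2, 11 had an unadjusted p under 0.05, and the median was -0.16. Of 21 genes of DNA methylation, 3 were lower and 0 higher by limma, edgeR and DESeq2 alike (17 at an unadjusted p under 0.05, median -0.30). These were Zbtb4, Tet2 and Mbd2 (-1.04), a reader of methylated DNA that fell short of the fold threshold without I replicate 3 (-0.94) or ID replicate 1 (-0.99).

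Genes that the publication pictured were also read, though some may have been picked with these libraries, so they give no independent count. Of 26 tested, 11 were called higher and 1 lower by limma, edgeR and DESeq2 alike, with a median of 0.90. Besides those above, Steap1, for a metalloreductase of the membrane, had values of 144, 149.7 and 134 in I and 1032 and 873 in ID, and Cited1, for a transcriptional coactivator, had values of 186, 178 and 174 in I and 743 and 851 in ID. They were high in ID without overlap (log2 fold change 2.73, limma adjusted p 2.43e-11, and log2 fold change 2.14, limma adjusted p 7.22e-10). Adamts2 (2.75), a procollagen protease gene, rose, as did Prkcb (1.06), for a protein kinase, and Adamts15 (1.05), for a protease of the matrix. Prkcb was not called without ID replicate 1 (1.17) or ID replicate 2 (0.95), nor was Adamts15 without ID replicate 2 (0.98). Prkcb was not called either with a pseudocount of 5, in a fit of all 4 lines (limma adjusted p 0.0138) or with the I and ID libraries fitted alone, and Adamts15 fell just short of the fold threshold with TMM factors. Clasp1, for a microtubule-binding protein, had values of 2533, 2687 and 2886 in U and 2749, 3202 and 2966 in D, and 893, 833 and 855 in I and 389 and 450.3 in ID. ID was lowest and I next, both below U and D (change from I to ID -1.04, interaction -1.18, limma adjusted p 2.19e-06), and the change from I to ID fell short of the fold threshold without ID replicate 1 (-0.93). The changes of the 14 genes not called by limma lay between -0.58 and 1.51, and Magee1 (0.86) was called without I replicate 1 (1.14).

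The genes called lower were longer in the median than other genes, though many were short. The median span from start to end was 68.8 kb for genes called lower, 16 kb for genes called higher and 19.6 kb for genes not called. Over 10 equal groups of genes ordered by span, the median log2 fold change went from 0.25 in the shortest, up to 2.50 kb, to -0.38 in the longest, from 112 kb, and 218 of the genes called lower lay in the longest group. The ID libraries, each set against the mean of I, gave -0.42 and -0.36 in the longest group, and the I libraries set against their own mean gave 0.07, 0.01 and -0.07. From U to D the medians of the shortest and longest groups were 0.07 and 0.07. From CTCF I to CTCF ID they were 0.22 and -0.60, so the trend was also present in the line without the CTCFL transgene. When each library was centred within these groups, 662 genes were higher and 484 lower.

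**Figure D4:**
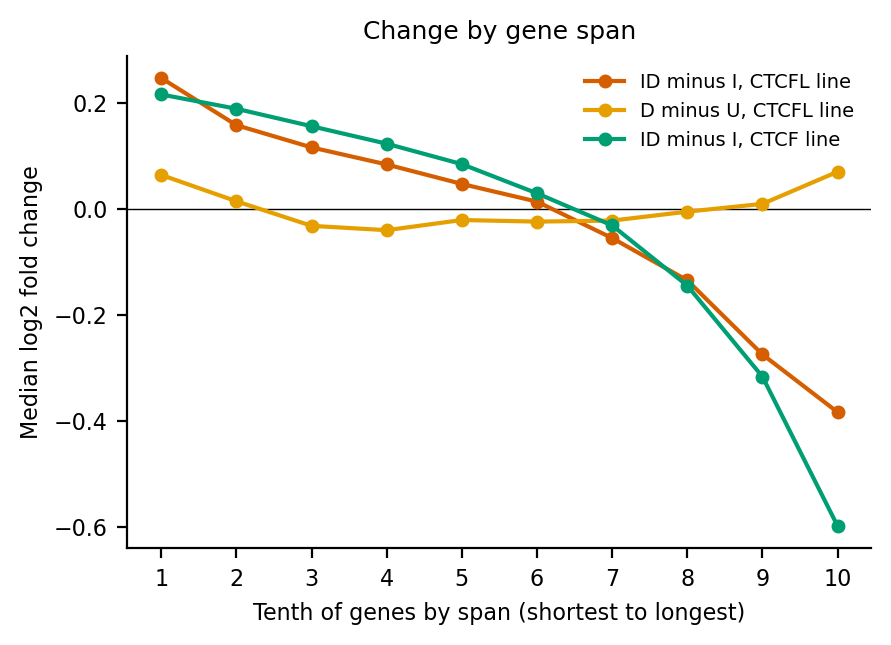
Median log2 fold change (y axis) of genes in 10 groups by span, from shortest to longest (x axis), for ID minus I and D minus U of the CTCFL line and ID minus I of the CTCF line, 1 point per group. Both ID minus I lines fall, from 0.25 to -0.38 and from 0.22 to -0.60, and the D minus U line is at 0.07 at both ends.

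The comparison rests on 2 ID libraries and 1 selected clone, and nothing states that libraries came from separate cultures, so p-values measure the spread between these samples alone. Protein levels of CTCFL and CTCF were not measured in these libraries. Dox itself, apart from the transgene it induces, was not tested in cells without a transgene. The groups differ in the share of reads in mitochondrial genes, 2.93% to 3.96% in I and 3.98% to 4.27% in ID. Total RNA per cell is not known, and values are relative to the other genes. Peaks and RNA come from different samples of the condition, and a site near a start site does not show that it acts on the gene.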

How the data were processed

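The RNA-seq values are signal values: normalized counts per gene, which the authors scaled by a size factor for each library, as deposited. RNA reads were aligned by the authors with STAR 2.6 to GRCm38/mm10, and ChIP-seq reads with Bowtie2. The deposited notes also name Trim Galore 0.4.4, SAMtools 1.3 and HTSeq. The RNA libraries keep the strand by the dUTP method, and whether reads were counted by strand is not stated. The deposited peak lists, 1 per replicate of Flag ChIP-seq, give a fold enrichment (a ratio) and a -log10 q-value, both made by the authors with MACS on uniquely mapped reads without duplicates. Per the labels, libraries were grouped by transgene, IAA and Dox. Whole reads were recovered from the step between values: up to 500 reads, 100% of values were whole within a tolerance of 0.1 in every library, and the total reads per library set the depth.

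The test is limma 3.58.1 (trend; R 4.3.3) on the log2 of value plus 1, with the 11 libraries of a line fitted together and genes kept at a mean of at least 10 there. Calls need more than a 2-fold change and, after Benjamini-Hochberg adjustment, p below 0.01. The interaction is a contrast in that fit, and the difference between the CTCFL and CTCF lines is a contrast in a fit of both lines. On recovered reads, edgeR 4.0.16 called 681 genes higher and 699 lower in ID than in I, and DESeq2 1.42.0 called 739 and 757. The outcome of a check of the tests on simulated data is not reported here, and no result rests on it. Start sites and spans come from GENCODE vM21 (GRCm38), with genes matched by symbol. A site is a region with a peak in both replicates, and it is assigned when its middle lies within 3 kb of a start site. Motifs were read in 50 bases on each side of a summit. Figures and tables used Python 3.11.15, pandas 2.3.3 and matplotlib 3.10.9.

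The named genes are Ctcfl and Ctcf, the 12 largest rises and 12 largest falls among called genes with a mean of at least 50, groups that do not overlap and a symbol that is not a predicted or clone name, the 6 of those also called in the interaction with its smallest adjusted p, up to 4 called members of each of 21 gene lists, and all members of the testis target list and of the list of genes pictured in the study. Dppa3, Tfcp2l1, Tgfbr2, Psmb9 and Ifitm1 and the split of depletion genes by site were added after the values were seen. A gene that the rule names is not reported here. The comparison and the lists were chosen with earlier results of these data known. Alternatives were another pseudocount, other filters on low values, TMM factors, other fits, a block for the replicate number, each library left out, edgeR, DESeq2, an adjusted p under 0.05, and other rules for sites.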

Additional observations from a re-analysis of the deposited data

Results flagged for a closer look

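The change with Dox differed between cells with and without IAA by a test of that difference, with 180 genes higher and 277 lower in depleted cells. Of the 95 named genes, 20 were among them, 12 higher and 8 lower. The differences of the log2 fold changes (ID minus I, less D minus U) were 3.40 for Prss41, 4.38 for Nkd2, 2.45 for Hic1, 2.31 for Nudt17, 2.27 for Snhg17, 1.56 for Ubqln4, 1.86 for Vps36, 1.99 for Tex261, 2.37 for Krtcap2, 2.69 for Ppa2, 2.29 for Tdrd12 and 1.16 for Steap1. They were -1.90 for Mettl25, -1.31 for St8sia1, -1.36 for Dll1, -2.54 for Zscan4e, -2.52 for Usp17lb, -1.01 for Tet2, -1.18 for Clasp1 and -2.19 for Gadd45g. The calls for Hic1, Zscan4e and Tet2 were lost when 9, 8 and 7 of the 11 libraries, respectively, were left out 1 at a time (limma adjusted p up to 0.0532 and 0.0356 for Hic1 and Zscan4e, and a difference down to -0.92 for Tet2), that for Prss41 without ID replicate 1 (3.06), and that for St8sia1 without ID replicate 2 (-0.86). Zscan4e and Usp17lb belong to families whose copies share reads.

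The change from I to ID also differed between the CTCFL line and the CTCF line, by the same kind of test, with 370 genes higher in the CTCFL line and 176 lower. The lines differ in transgene and in clone. The cause of these differences was not tested.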

How the results depend on the processing

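Of 159 summary values recomputed under an alternative, 145 kept within the limits set for a change, and 14 did not. The genes called in ID against I numbered 472 to 654 (higher) and 562 to 659 (lower) with 1 library of the 2 groups left out. Chosen after seeing the data were leaving out D replicate 3 (674 and 688), centring within groups of span (662 and 484; D against U 612 and 355), and leave-outs for the CTCF line (247 to 313 higher, 452 to 528 lower) and between lines (446 to 529). The remaining alternatives gave 561 to 860 and 594 to 800. Left-out libraries gave 533 to 575 and 292 to 373 genes for D against U, and 356 to 516 for the interaction. With a block for the replicate number, as if samples with the same number were a pairing, 625 genes were higher and 618 lower, the interaction had 409, D against U had 602 and 346, CTCF ID against I had 275 and 516, and the lines differed in 513. The labels name no such pairing, and the deviations of same-numbered I and ID libraries from their group means had correlations of 0.0254 and 0.0132.

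The interaction had 706 genes at an adjusted p under 0.05, which by construction adds genes. For genes lowered by depletion in the CTCF line, the median change from I to ID was -0.2045 with a mean of at least 50 and -0.1756 with TMM factors. For genes raised there it was -0.05947 with no filter on low values, -0.008606 with a mean of at least 50 and -0.1071 with TMM factors. For genes lowered in the CTCFL line, the median in CTCF ID against I was -0.5403 with a pseudocount of 5. The share of higher genes with a site was 71.6% with a window of 1 kb, 76.4% with peaks of a -log10 q of at least 5 and 75.2% with start sites of protein-coding genes alone, and 81.3% and 81.9% with peaks of 1 replicate. For lower genes these were 20.9% (1 kb), 25.5% (stricter peaks), and 37.6% and 38.8% with peaks of 1 replicate, where by construction more peaks count. The cause of the other changes was not tested. TMM factors moved the median of all genes from -0.01 to -0.06. With the block, Lfng, Zscan4c, Usp18 and Mbd2 lost the call. Of 95 named genes, called or not, 70 neither lost nor gained the call in ID against I in any of up to 14 alternatives (8 had too low a mean to be tested at a mean of at least 50), and 0 changed direction with a call. This count does not cover the calls of the other comparisons. In genes with few reads, such as Prss41 and Dll4 in I, depth limits the size of a fold change.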
